A study of Mus musculus with 6 samples.

Results

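The T and natural killer (NK) cell genes were 10 genes chosen by symbol from the 40481 genes of the count table of the series: the CD3 chains Cd3d, Cd3e and Cd3g, the coreceptors Cd4, Cd8a and Cd8b1, the granule genes Gzma, Gzmb and Nkg7, and the NK receptor gene Klrb1c. All 10 were present, each as 1 protein-coding gene. The rule used symbols and no expression value. They were measured by RNA-Seq of whole liver in 3 WT pools and 3 Mttp-IKO pools of C57BL/6 mice. Both groups carried floxed Mttp alleles and the tamoxifen-dependent Villin Cre ERT2 transgene and were fed a methionine- and choline-deficient (MCD) diet for 3 weeks. Mttp-IKO mice had received tamoxifen (50 µg per g body weight a day for 5 days) and the littermates that the labels call wild type had received vehicle. The male mice were 12 to 16 weeks old, the diet began 3 weeks after tamoxifen, and livers were taken after a fast of 4 hours according to the labels. The paper's methods give 3 to 4 mice for each pool, whereas the design text of the series speaks of 12 livers, so the number per pool is uncertain. Each pool joined RNA of several livers, so n counts pools, and the spread between pools understates the spread between mice. The Villin promoter drives Cre in the intestinal epithelium. Mttp, which encodes the microsomal triglyceride transfer protein needed to assemble apoB lipoproteins, is therefore not the target in liver, and its liver mRNA (150 ± 52.1 CPM, the count scaled to the pool's total, in WT and 145 ± 15.9 CPM in Mttp-IKO, SD, n = 3) tells nothing of the deletion.

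T cells recognise peptides held by MHC molecules through the T cell receptor, whose signal enters the cell through the CD3 gamma, delta and epsilon chains and the zeta chain. CD4 marks helper and regulatory T cells and CD8 marks cytotoxic T cells, while NK cells kill without a rearranged receptor and share the granule proteins of cytotoxic T cells. The liver holds resident and circulating cells of all these kinds, and in steatohepatitis they gather in the inflamed lobule together with recruited macrophages.

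The CD3 genes lie side by side on mouse chromosome 9 (GRCm38). Cd3g (chr9:44969572-44980431, minus strand) and Cd3d (chr9:44981793-44987052, plus strand) point away from each other with 1362 bases between their starts, and Cd3e (chr9:44998743-45009590, minus strand) follows, so the locus spans 40019 bases. On chromosome 6, Cd8b1 (chr6:71322836-71337477, plus strand) ends 35950 bases before Cd8a (chr6:71373427-71379171, plus strand), with Cd4 (chr6:124864692-124888221, minus strand) and Klrb1c (chr6:128778485-128789215, minus strand) farther along. Nkg7 (chr7:43437073-43438246, plus strand), Gzma (chr13:113093825-113100979, minus strand) and Gzmb (chr14:56258856-56262260, minus strand) stand alone. No member shared exon bases with another annotated gene.

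The 250 bases before the RefSeq start (GRCm38.p6) are shown for the CD3 genes, because the only member whose pools did not overlap between genotypes is in that locus, and for the granzymes, the proteases of the cytotoxic granule. Capitals mark matches to 2 short cores on either strand, the ETS core (CAGGAA, read TTCCTG on the other strand) and the RUNX core (TGTGGT, read ACCACA), named for transcription factor families active in lymphocytes. The windows are Cd3g chr9:44980432-44980681, Cd3d chr9:44981536-44981785, Cd3e chr9:45009612-45009861, Gzma chr13:113100982-113101231 and Gzmb chr14:56262335-56262584, each written 5′ to 3′ along its gene.
Cd3g: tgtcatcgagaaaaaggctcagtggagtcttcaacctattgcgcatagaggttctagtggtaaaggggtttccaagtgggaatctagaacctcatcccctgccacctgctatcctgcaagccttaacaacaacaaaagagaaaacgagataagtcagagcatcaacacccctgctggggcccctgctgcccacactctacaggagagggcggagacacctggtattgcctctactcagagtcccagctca
Cd3d: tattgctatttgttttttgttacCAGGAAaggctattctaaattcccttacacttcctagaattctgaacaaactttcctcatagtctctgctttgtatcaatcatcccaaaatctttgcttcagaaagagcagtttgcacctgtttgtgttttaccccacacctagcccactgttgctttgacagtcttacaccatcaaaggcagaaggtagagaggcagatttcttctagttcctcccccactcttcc
Cd3e: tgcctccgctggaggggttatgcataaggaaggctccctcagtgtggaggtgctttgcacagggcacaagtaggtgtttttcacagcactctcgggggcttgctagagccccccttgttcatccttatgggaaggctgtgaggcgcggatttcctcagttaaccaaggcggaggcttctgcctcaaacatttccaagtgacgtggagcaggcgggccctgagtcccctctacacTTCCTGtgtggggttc
Gzma: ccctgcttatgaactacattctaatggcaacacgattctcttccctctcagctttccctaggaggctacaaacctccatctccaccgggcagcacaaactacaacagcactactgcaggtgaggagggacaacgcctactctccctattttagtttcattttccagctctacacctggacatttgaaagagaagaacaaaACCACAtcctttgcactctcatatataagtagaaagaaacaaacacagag
Gzmb: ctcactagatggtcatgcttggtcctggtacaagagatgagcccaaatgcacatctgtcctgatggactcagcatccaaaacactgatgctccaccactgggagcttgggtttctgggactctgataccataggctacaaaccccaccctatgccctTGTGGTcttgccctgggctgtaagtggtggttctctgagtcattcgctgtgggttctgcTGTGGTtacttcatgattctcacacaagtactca
The ETS core begins 227 bases before the start of Cd3d and 16 bases before that of Cd3e, and the Cd3g window held neither core. The RUNX core begins 50 bases before the start of Gzma and 93 and 34 bases before that of Gzmb. Of the 8 members with a promoter entry, 3 held the ETS core (Cd3d, Cd3e and Nkg7) and 4 held the RUNX core (Gzma, Gzmb, Klrb1c and Nkg7), against 25.7% and 14.0% of 32851 promoters with windows of this length. A TATA core (TATAAA, read TTTATA) was in 12.4% of promoters and in 0 of the 8. Cd4 and Cd8b1 had no entry. A match describes the letters only.

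The pools held 25271585 to 36238734 reads assigned to genes, of which 75 to 641 fell on the 10 members. A count of 0 allows up to 3 reads, or 0.0828 to 0.119 CPM depending on the pool. Low counts were even more often than odd in every pool (60.5% to 64.1% of genes with 1 to 20 reads, and 34 of the 56 member counts above 0). Limits and intervals that treat reads as independent are therefore too narrow. Raw reads are given in the order of replicates 1, 2 and 3, and CPM after scaling by the trimmed mean of M values (TMM). Log2 fold changes are Mttp-IKO minus WT.

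**Figure D1:**
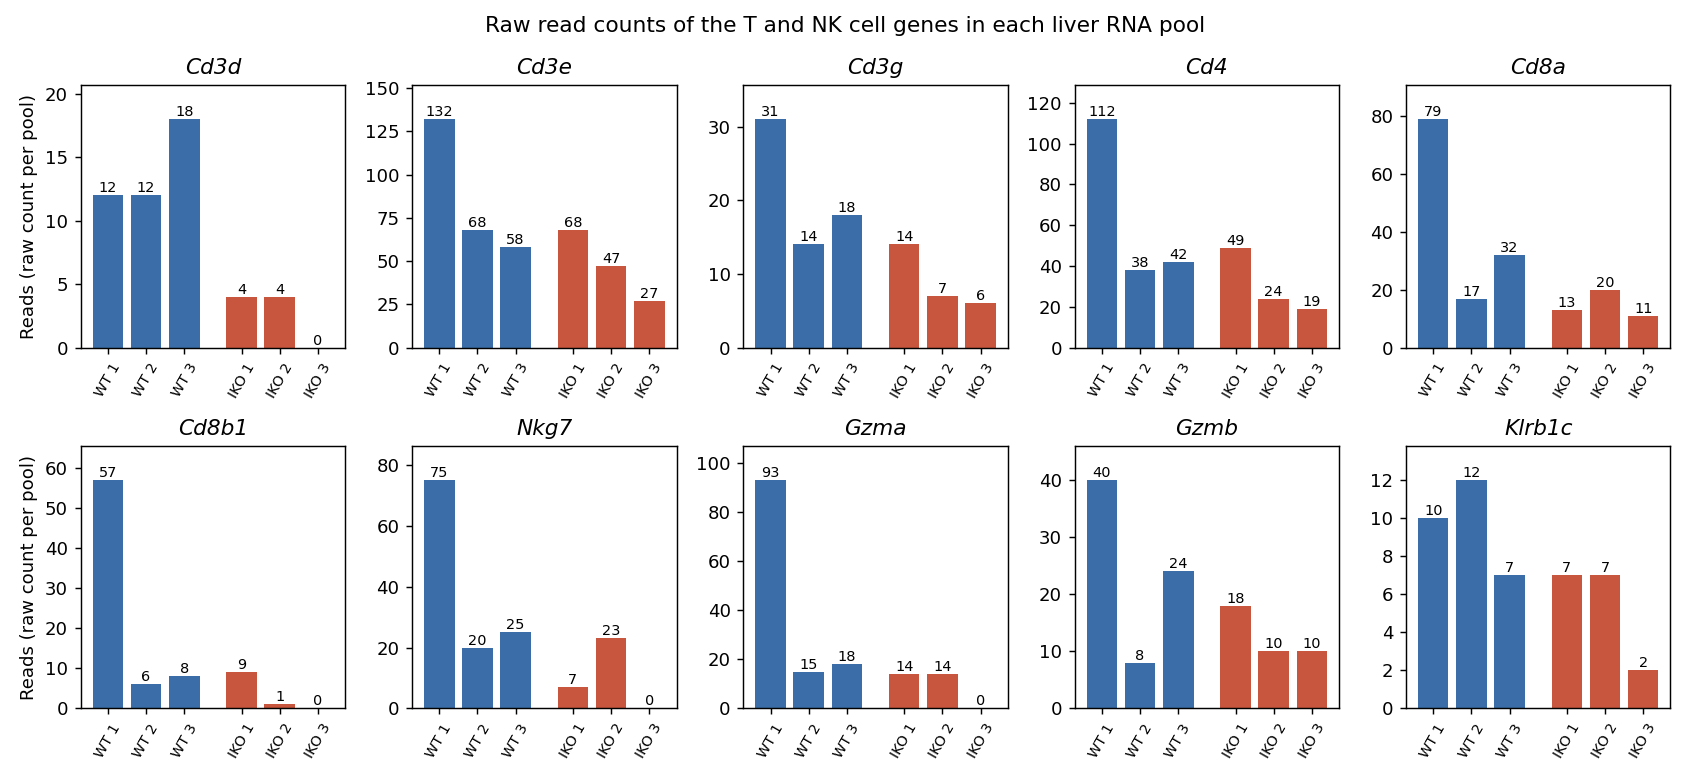
Raw reads of each of the 10 T and NK cell genes (vertical axis, reads; 1 panel a gene) in the 3 WT pools (blue) and the 3 Mttp-IKO pools (red), each bar a pool with its count above it. WT pool 1 is the highest WT bar in all panels but those of Cd3d and Klrb1c, and Mttp-IKO pool 3 is at 0 for Cd3d, Cd8b1, Nkg7 and Gzma.

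Cd3d encodes the delta chain, which pairs with epsilon in the receptor complex. It had 12, 12 and 18 reads in the WT pools and 4, 4 and 0 in the Mttp-IKO pools. Every WT pool lay above every Mttp-IKO pool. The level was 0.397 ± 0.143 CPM in WT and 0.0886 ± 0.0769 CPM in Mttp-IKO (SD, n = 3), a log2 fold change of -2.03 ± 0.742 (SE) that did not pass the test across all genes (adjusted p = 0.157 by edgeR's quasi-likelihood test with Benjamini-Hochberg adjustment). An exact two-sided permutation test of 3 pools against 3 gave p = 0.1, the smallest it can give.

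Cd3e, the epsilon chain found in both CD3 dimers, was the most abundant member. It had 132, 68 and 58 reads in WT and 68, 47 and 27 in Mttp-IKO. The groups overlapped, since Mttp-IKO pool 1 lay above WT pools 2 and 3 after scaling. Its log2 fold change was -0.49 ± 0.368 (edgeR adjusted p = 0.459). Cd3g, the gamma chain, had 31, 14 and 18 reads in WT and 14, 7 and 6 in Mttp-IKO, with Mttp-IKO pool 1 above WT pool 2 after scaling. Its log2 fold change was -0.85 ± 0.474 (edgeR adjusted p = 0.324). Within the CD3 trio, Cd3e took 75.4% (95% exact binomial interval 68.4 to 81.6%), 72.3% (62.2 to 81.1%) and 61.7% (51.1 to 71.5%) of reads in WT. In Mttp-IKO it took 79.1% (69.0 to 87.1%), 81.0% (68.6 to 90.1%) and 81.8% (64.5 to 93.0%). The 3 Mttp-IKO shares lay above the 3 WT shares, but every pool's interval overlapped those of the other genotype. Summed over the trio, the level was 3.29 ± 0.919 CPM in WT and 2.05 ± 0.695 CPM in Mttp-IKO, with overlapping pools.

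Cd4 encodes the coreceptor for MHC class II and is also read from some macrophages and dendritic cells. It had 112, 38 and 42 reads in WT and 49, 24 and 19 in Mttp-IKO. WT pool 1 stood above the rest, and Mttp-IKO pool 1 lay above WT pools 2 and 3. Its log2 fold change was -0.68 ± 0.472 (edgeR adjusted p = 0.426).

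Cd8a and Cd8b1 encode the chains of the coreceptor for MHC class I. Cd8a had 79, 17 and 32 reads in WT and 13, 20 and 11 in Mttp-IKO, a log2 fold change of -1.13 ± 0.552 (edgeR adjusted p = 0.267). WT pool 2 lay within the Mttp-IKO range. Cd8b1 had 57, 6 and 8 reads in WT and 9, 1 and 0 in Mttp-IKO and was left out of the test by the filter on low counts. WT pool 1 alone held 57 of its 71 WT reads, and the other 5 pools overlapped between 0 and 9 reads. Fitted with no filter, its log2 fold change was -2.41 ± 1.06 (edgeR adjusted p = 0.287). Both CD8 genes together gave 136, 23 and 40 reads in WT and 22, 21 and 11 in Mttp-IKO. After scaling, WT pool 2 (0.637 CPM) lay within the range of Mttp-IKO pools (0.461 to 0.719 CPM) and WT pools 1 and 3 above it.

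Gzma encodes granzyme A, a serine protease of cytotoxic granules. It had 93, 15 and 18 reads in WT and 14, 14 and 0 in Mttp-IKO. Outside WT pool 1 and Mttp-IKO pool 3 the counts stayed between 14 and 18, and the log2 fold change of -1.77 ± 0.950 (edgeR adjusted p = 0.307) came to -0.62 without WT pool 1, to -2.18 without Mttp-IKO pool 2 and to -0.07 without both WT pool 1 and Mttp-IKO pool 3. Nkg7, a granule membrane protein of NK and cytotoxic T cells, had 75, 20 and 25 reads in WT and 7, 23 and 0 in Mttp-IKO. Mttp-IKO pool 2 lay above WT pools 2 and 3 after scaling, and the log2 fold change was -1.62 ± 0.915 (edgeR adjusted p = 0.330). It came to -3.09 without Mttp-IKO pool 2 (edgeR adjusted p = 0.211) and to -0.96 without WT pool 1 (0.712). Gzmb, encoding granzyme B, which cleaves caspases in target cells, had 40, 8 and 24 reads in WT and 18, 10 and 10 in Mttp-IKO. WT pool 2 was the lowest of the 6 pools after scaling, below every Mttp-IKO pool, and the log2 fold change was -0.54 ± 0.573 (edgeR adjusted p = 0.608).

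Klrb1c, which encodes the NK1.1 antigen that defines NK cells in C57BL/6 mice, was the lowest member per length. It had 10, 12 and 7 reads in WT and 7, 7 and 2 in Mttp-IKO. The pools overlapped and the gene was below the filter. Fitted with no filter, its log2 fold change was -0.53 ± 0.720 (edgeR adjusted p = 0.726).

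Of the 10 members, 8 passed the filter and 0 of these 8 were called at an adjusted p under 0.05 by edgeR, where 4.01% of all 17287 genes tested were called (694 genes, 535 of them lower in Mttp-IKO). At an unadjusted p under 0.05, 1 of the 8 (Cd3d) passed, against 23% of all genes. The pools of 1 of the 8 did not overlap, against 31% of all genes. DESeq2 called 0 and limma-voom called 0, while edgeR's exact test called 1 (Cd3d, adjusted p = 0.0308, against 0.0308 to 0.437 over all settings run). All 8 log2 fold changes were below 0, as were 49.5% of those of all genes, and their median was -0.99 against 0.0059 for all genes. These directions are not independent of each other, since the members share cells and pools, and with single pools left out the median ran from -1.30 (without WT pool 2) to -0.55 (without WT pool 1), with 8 of 8 below 0 each time. WT pool 1 and Mttp-IKO pool 3 had the most and the fewest member reads, so leaving out both moves values toward 0 by construction. Without them 6 of 8 were below 0, the median was -0.24, and Cd3e and Cd4 were at 0.04 and 0.02. In a whole-tissue sample, fewer T or NK cells and less of these RNAs per cell cannot be told apart.

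**Figure D2:**
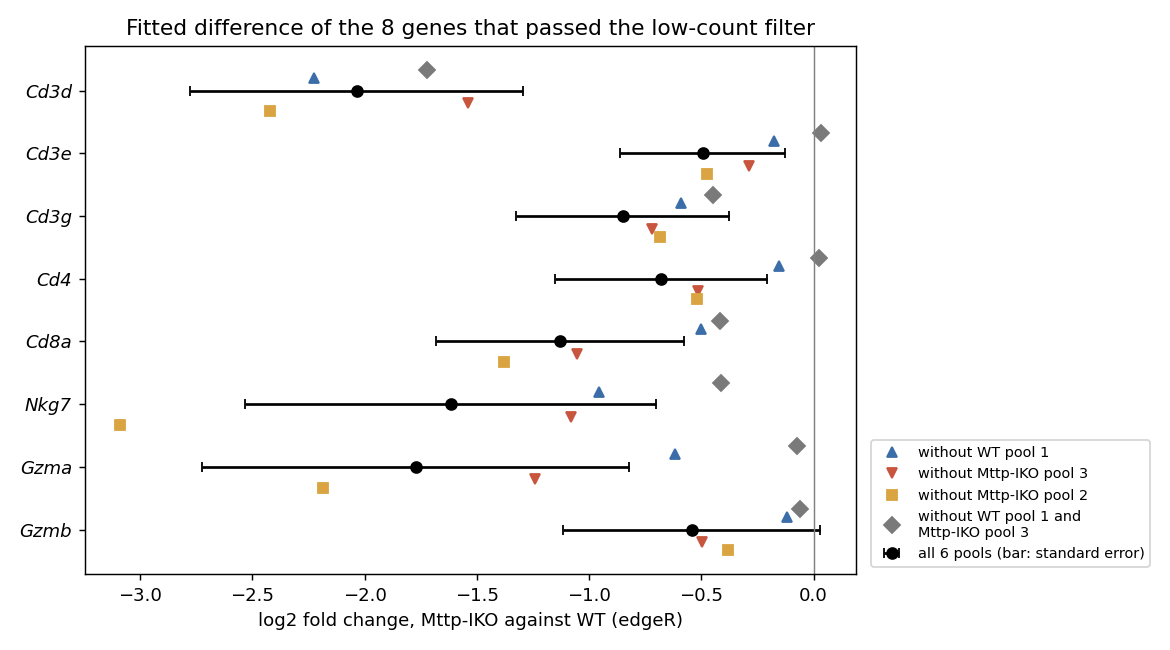
Log2 fold change (horizontal axis, Mttp-IKO minus WT) of the 8 members that passed the filter, with bars of 1 SE for all 6 pools, and the values without WT pool 1, without Mttp-IKO pool 3, without both (the pools with the most and the fewest member reads) and without Mttp-IKO pool 2. All values with 6 pools lie between -2.03 and -0.49, and that of Nkg7 runs from -3.09 without Mttp-IKO pool 2 to -0.41 without both of the others.

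Per kilobase of exon, the order in WT began with Cd3e at 1.62 ± 0.573 CPM per kb (SD, n = 3), Gzma at 1.25 ± 1.20 and Nkg7 at 1.21 ± 0.794. Cd3g (0.535 ± 0.178), Gzmb (0.461 ± 0.277), Cd8b1 (0.430 ± 0.491), Cd4 (0.425 ± 0.230), Cd8a (0.365 ± 0.241) and Cd3d (0.30 ± 0.108) followed, and Klrb1c (0.0899 ± 0.0200) was last. Only Cd3d and Klrb1c were neighbours in this order whose WT pools did not overlap. In Mttp-IKO the order was Cd3e (1.14 ± 0.369), Nkg7 (0.385 ± 0.462), Gzma (0.353 ± 0.306), Gzmb (0.315 ± 0.0853), Cd3g (0.293 ± 0.111), Cd4 (0.264 ± 0.110), Cd8a (0.167 ± 0.0458), Cd8b1 (0.0762 ± 0.112), Cd3d (0.0670 ± 0.0581) and Klrb1c (0.0618 ± 0.0291). No neighbours in that order were separate. The high place of Gzma and Nkg7 in WT came with WT pool 1, where they stood at 2.62 and 2.12 CPM per kb beside 2.28 for Cd3e. In WT pools 2 and 3 Gzma was at 0.473 and 0.639 and Nkg7 at 0.631 and 0.888, beside 1.31 and 1.26 for Cd3e.

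WT pool 1 held 641 of the 1101 member reads of the WT group, or 58.2% (95% exact binomial interval 55.2 to 61.2%), with 35.6% of the group's total reads. The excess differed by gene. In CPM, WT pool 1 was 6.79 times the mean of WT pools 2 and 3 for Cd8b1, 4.72 times for Gzma, 2.79 times for Nkg7, 2.66 times for Cd8a, 2.35 times for Cd4 and 2.04 times for Gzmb. The CD3 genes differed less, with 1.77 times for Cd3e, 1.62 times for Cd3g and 0.665 times for Cd3d, and Klrb1c was at 0.900 times. Cd3d and Klrb1c were thus not above the mean of the other WT pools, whereas the other 8 members were. In the same pool the summed pan-leukocyte markers were 1.48 times, cholangiocyte markers 1.85 times, neutrophil markers 1.81 times and B cell markers 0.776 times the mean of the other WT pools. Recruited macrophage markers were at 1.42 times, Kupffer cell markers at 1.32 and conventional dendritic cell markers at 1.30. Stellate cell markers were at 1.28 times and erythroid markers at 1.07. Endothelial markers were at 0.795 times, mast cell and basophil markers at 0.726 and hepatocyte markers at 0.668. Plasmacytoid dendritic cell markers were at 2.93 times, but Ly6d gave 162 of their 172 CPM in that pool. Spp1 likewise gave 148 of the 193 CPM of the cholangiocyte markers there.

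Mttp-IKO pool 3 had the fewest member reads (75) and 0 reads of Gzma, Nkg7, Cd3d and Cd8b1, all of which have at most 1418 exonic bases. At the mean level of Mttp-IKO pools 1 and 2, that pool would hold 11.01 reads of Gzma, 11.7 of Nkg7, 3.15 of Cd3d and 3.97 of Cd8b1. Short protein-coding genes in general were low there. Among genes with at least 20 reads over Mttp-IKO pools 1 and 2, the median ratio of CPM in pool 3 to the mean of those pools was 0.448 for genes of 500 to 999 exonic bases, 0.612 for those of 1000 to 1499, and 1.18 for those of 5000 or more. A count of 0 in pool 3 was found for 2.37% of these genes of 500 to 999 bases, the class of Gzma and Nkg7, and for 0.665% of those of 1000 to 1499 bases. Cd3d (4 and 4 reads in pools 1 and 2) and Cd8b1 (9 and 1) fell short of the 20 reads. Gzma (14 and 14) and Nkg7 (7 and 23) met it, among genes with any higher count. These shares are therefore no background for a 0 of the members. The longer members Klrb1c (2961 bases), Cd8a (3130 bases) and Cd4 (4032 bases) stood at 0.363, 0.849 and 0.659 of pools 1 and 2. The short Cd3g (1070 bases), Gzmb (1418 bases) and Cd3e (1436 bases) stood at 0.724, 0.905 and 0.596. When each pool's trend with gene length was removed, 0 members were called and their median log2 fold change was -0.97, against -0.99 in the main fit. The class medians of this pool rose with length, but the part of length in each 0 of the members was not tested.

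**Figure D3:**
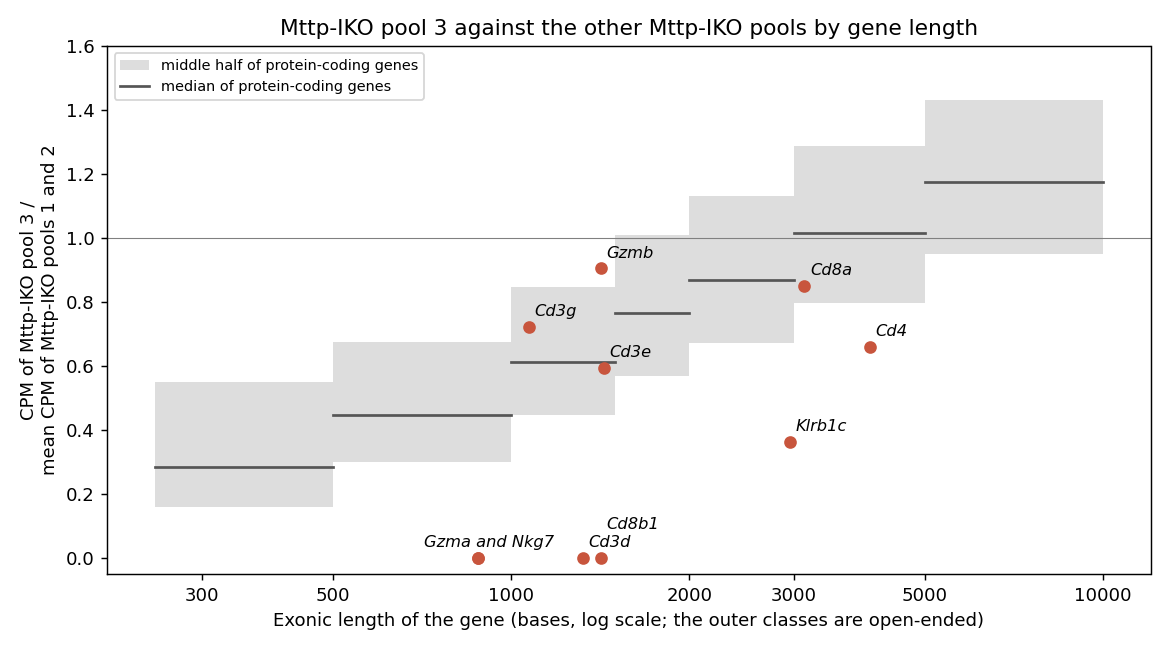
Ratio of CPM in Mttp-IKO pool 3 to the mean of Mttp-IKO pools 1 and 2 (vertical axis) against exonic length in bases (horizontal axis, log scale) for the 10 members (points) and for protein-coding genes by length class (lines, medians; grey, the range between the quartiles). The class medians climb from 0.284 for the shortest class to 1.18 for genes of 5000 bases or more, and 4 members sit at 0.

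The members were then set beside the leukocytes of the same pools. Summed over the 10 genes, the level was 15.9, 5.82 and 7.80 CPM in WT and 6.54, 5.38 and 3.14 CPM in Mttp-IKO, a mean 1.96 times higher in WT with overlapping pools. The 5 pan-leukocyte markers (Ptprc, Cd52, Cd53, Coro1a and Laptm5) summed to 331, 151 and 297 CPM in WT and 114, 107 and 93.9 CPM in Mttp-IKO, a mean 2.47 times higher in WT with no overlap. Of these 5, Coro1a (log2 fold change -1.55, edgeR adjusted p = 0.0415) and Cd52 (-2.13, edgeR adjusted p = 0.0483) fell, and Ptprc, encoding CD45, was at -1.13 (edgeR adjusted p = 0.0515). The Coro1a call was lost by limma-voom (adjusted p = 0.0652) and without each pool but WT pool 2 (0.0696 to 0.160), and the Cd52 call by limma-voom (0.0636), with DESeq2's size factors (0.05002) and without each pool but WT pool 2 and Mttp-IKO pool 3 (0.0788 to 0.176). Laptm5 alone gave 7248, 2890 and 5361 of the 13346, 5438 and 9523 pan-leukocyte reads in WT. In Mttp-IKO it gave 1880, 1918 and 1290 of the 3531, 3128 and 2241, so ratios to these reads lean on that gene. Per 1000 pan-leukocyte reads, the members gave 48.0, 38.6 and 26.3 reads in WT and 57.5, 50.2 and 33.5 in Mttp-IKO. The pools overlapped, and the mean was 37.6 ± 10.9 in WT and 47.0 ± 12.3 in Mttp-IKO (SD, n = 3). Cd3e alone gave 50, 58.3 and 33.1 reads per 1000 Ptprc reads in WT and 84.1, 75.3 and 51.3 in Mttp-IKO, again with overlapping pools and with the mean higher in Mttp-IKO. The CD3 genes, which mark all T cells, gave 13.1, 17.3 and 9.87 reads per 1000 pan-leukocyte reads in WT and 24.4, 18.5 and 14.7 in Mttp-IKO. The granzymes and Nkg7 gave 15.6, 7.91 and 7.04 against 11.05, 15.03 and 4.46, and the CD8 genes 10.2, 4.23 and 4.20 against 6.23, 6.71 and 4.91. In no group of members was the pool order separate by genotype on this scale.

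**Figure D4:**
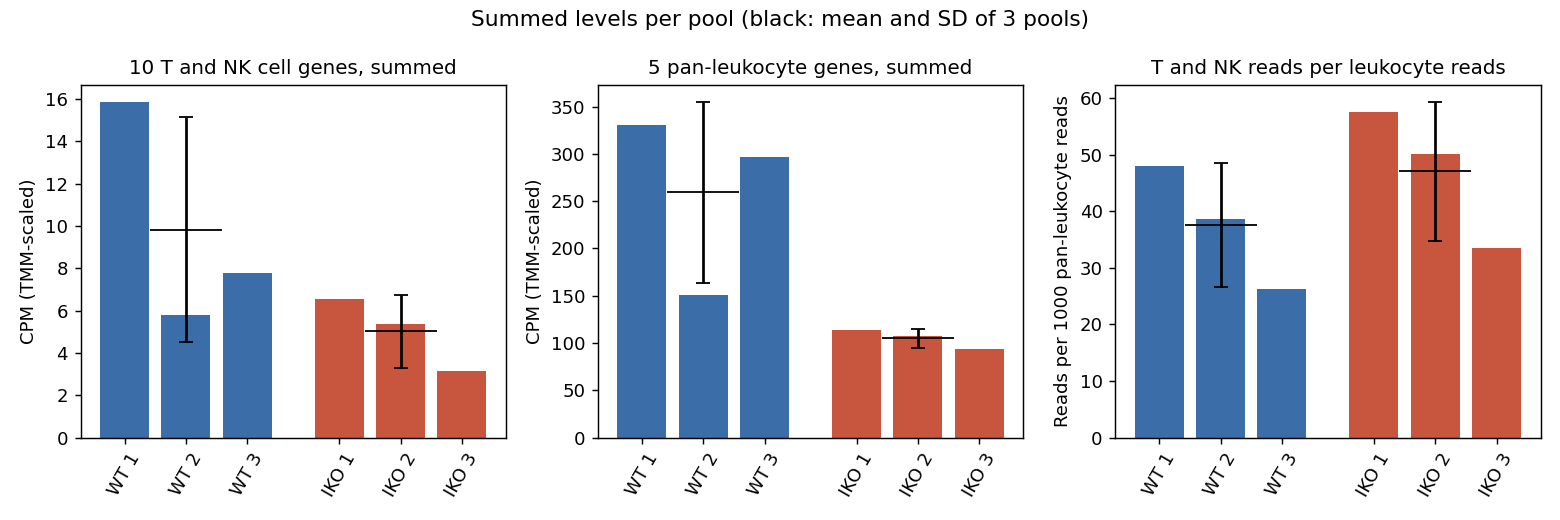
Summed CPM of the 10 members, summed CPM of the 5 pan-leukocyte markers, and member reads per 1000 pan-leukocyte reads (vertical axes) by genotype, with each pool as a bar and the mean and SD of 3 pools in black. The pan-leukocyte sums are separate (151 to 331 CPM in WT, 93.9 to 114 CPM in Mttp-IKO), whereas the member sums and the ratios overlap.

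Other cell types differed by genotype in the same pools. All 6 markers of recruited macrophages and monocytes had log2 fold changes below 0. Of these, 5 fell (Cx3cr1, Ccr2, Trem2, Itgax and Ly6c2), where 3.09% of all genes fell. The sum of the 6 was 5.56 times higher in WT (218 to 702 CPM against 42.2 to 123 CPM). Gpnmb, the marker not called (edgeR adjusted p = 0.0587), gave 436 of the mean 525 CPM in WT and 80.1 of 94.4 CPM in Mttp-IKO. Of the 4 plasmacytoid dendritic cell markers Siglech and Klk1 fell. Of the 5 conventional dendritic cell markers, 3 were below 0 (Flt3, which fell, Xcr1 and Cd209a) and 2 above (Clec9a at 0.22 and Zbtb46 at 0.14). Their sum was nearly even (28.5 CPM in WT and 26.7 CPM in Mttp-IKO). Zbtb46 and Clec9a gave 13.2 and 9.28 CPM of it in WT and 14.5 and 10.9 CPM in Mttp-IKO. All 4 B cell markers tested were below 0 and 0 were called by edgeR (2 at an unadjusted p under 0.05). Of 6 Kupffer cell markers, 4 had log2 fold changes below 0 and 2 above. The 4 were Adgre1, Csf1r and Cd5l (these 3 at an unadjusted p under 0.05 by edgeR) and Clec4f (-0.19). The 2 were Vsig4 (0.12) and Timd4, which rose. The sum was 1.45 times higher in WT, where Csf1r and Cd5l gave 195 and 194 of its mean 560 CPM. Among the stellate cell markers Col1a1 and Lrat fell. Each of the 13 marker calls by edgeR, those of Coro1a, Cd52 and Timd4 included, was lost when certain single pools were left out, in 3 (Col1a1) to 6 (Ly6c2) of the 6 ways to do so. Hepatocyte markers summed to 50179 to 84782 CPM in WT and 98434 to 154316 CPM in Mttp-IKO, and CPM are shares of a pool's total. Alb alone gave 54086 of the mean 66788 CPM in WT and 104640 of 123325 CPM in Mttp-IKO. Of the 5 hepatocyte markers, 4 were above 0 and 1 below (Ttr at -0.55, with every WT pool above every Mttp-IKO pool), and edgeR called 0. Mast cell and basophil markers other than Kit had at most 8 reads in a pool, with Mcpt8 at 0 in every pool. The part of these cell types in the values of Cd4, Nkg7 and the companion genes was not tested.

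Further genes of T and NK cells were read from 5 lists of 73 measured genes, 46 of which passed the filter. Of the 46, 37 had log2 fold changes below 0 and 9 above, 3 fell (3.09% of all genes fell) and 0 rose (0.92% of all genes rose). At an unadjusted p under 0.05, 13 were lower and 2 higher in Mttp-IKO, where 13.5% of all genes were lower and 9.53% higher.

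The list of T cell receptor and signalling genes had 17 members, of which 15 were tested. Of these, 14 were below 0 and 1 above, edgeR called 0 (3 lower and 1 higher at an unadjusted p under 0.05), and the median was -0.78. Counts of Trbc1 and Trbc2, near-identical constant regions, are uncertain because reads that fit both were not counted. Zap70, the kinase that binds the phosphorylated receptor, had 211, 213 and 166 reads in WT and 139, 174 and 99 in Mttp-IKO, a log2 fold change of -0.16 (edgeR adjusted p = 0.698). Thy1, a surface glycoprotein of T cells that fibroblasts also carry, had 138, 88 and 89 reads in WT and 30, 45 and 10 in Mttp-IKO. Its pools did not overlap, and the log2 fold change was -1.54 (edgeR adjusted p = 0.0914, 0.0135 by DESeq2, and 0.0132 to 0.285 over all settings run).

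Cd28, the costimulatory receptor of T cells, went the other way. It had 26, 19 and 26 reads in WT and 34, 67 and 40 in Mttp-IKO, so that every Mttp-IKO pool was above every WT pool. The log2 fold change was 1.35 ± 0.385, with an edgeR adjusted p of 0.0920 by the quasi-likelihood test, 0.0230 by the exact test, 0.0403 by DESeq2 and up to 0.283 with a pool left out. It was the only tested gene of its list above 0.

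Among the 14 genes of T cell subsets and activation, 10 were tested, 6 below and 4 above 0, with a median of -0.14. Tbx21 fell. It encodes T-bet, the transcription factor of type 1 helper T cells and NK cells. It had 32, 25 and 33 reads in WT and 5, 5 and 6 in Mttp-IKO, a log2 fold change of -2.10 ± 0.428 (edgeR adjusted p = 0.0407). The pools were far apart and even within each group. The call was lost without Mttp-IKO pool 1 or 2 or any single WT pool (edgeR adjusted p of 0.0533 to 0.170) and held without Mttp-IKO pool 3 (0.0473). Il7r, the interleukin 7 receptor, had 272, 119 and 280 reads in WT and 48, 72 and 74 in Mttp-IKO (log2 fold change -1.40, edgeR adjusted p = 0.0945). Tcf7, encoding TCF1 of naive and memory T cells, had 213, 396 and 262 reads in WT and 405, 327 and 329 in Mttp-IKO (log2 fold change 0.64, edgeR adjusted p = 0.203), with every Mttp-IKO pool above every WT pool after scaling. Per kilobase of exon its mean was 3.10 CPM in WT and 4.83 CPM in Mttp-IKO, beside 1.62 and 1.14 for Cd3e. The part of other cells in the Tcf7 reads was not tested. Cd27, a costimulatory receptor, had 81, 68 and 54 reads in WT and 50, 70 and 25 in Mttp-IKO (log2 fold change -0.14, edgeR adjusted p = 0.849).

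Of the 22 NK cell receptor and regulator genes, 6 were tested, all 6 were below 0, edgeR called 0 (2 at an unadjusted p under 0.05) and the median was -0.53. The other 16 had too few reads. Klrg1, Klra1 and Klra4 had 0 in every pool, and the Klra genes have near-identical copies, so reads shared among them were lost to the counts. Il2rb, the beta chain of the receptor for interleukins 2 and 15, had 283, 145 and 174 reads in WT and 115, 126 and 114 in Mttp-IKO (log2 fold change -0.36, edgeR adjusted p = 0.435). Klrk1, the activating receptor NKG2D, had 76, 41 and 60 reads in WT and 22, 9 and 26 in Mttp-IKO, with separate pools (log2 fold change -1.23, edgeR adjusted p = 0.177). Cd160 had 52, 20 and 31 reads in WT and 28, 22 and 27 in Mttp-IKO, a log2 fold change of -0.02 whose sign turned with the processing.

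Of the 11 cytotoxic granule and effector genes, 6 were tested, 4 below and 2 above 0, edgeR called 0 (2 at an unadjusted p under 0.05) and the median was -0.73. Ccl5, a chemokine of activated T and NK cells, was the most abundant with 538, 143 and 218 reads in WT and 86, 147 and 17 in Mttp-IKO (log2 fold change -1.49, edgeR adjusted p = 0.220). WT pool 1 was the highest and Mttp-IKO pool 3 the lowest, as for Gzma and Nkg7. Ctsw, a cathepsin of cytotoxic cells, had 71, 40 and 72 reads in WT and 46, 45 and 18 in Mttp-IKO (log2 fold change -0.43, edgeR adjusted p = 0.561). Prf1, the pore-forming perforin that lets granzymes into target cells, had 38, 18 and 26 reads in WT and 42, 26 and 28 in Mttp-IKO (log2 fold change 0.60, edgeR adjusted p = 0.377). Prf1 was thus not lower beside the granzymes, and its pools overlapped.

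All 9 homing receptor genes were tested, 7 below and 2 above 0, with a median of -0.84, and 2 fell. Ccr7, which guides naive T cells and migrating dendritic cells to lymph nodes, had 100, 38 and 67 reads in WT and 6, 7 and 10 in Mttp-IKO, a log2 fold change of -2.73 ± 0.485 (edgeR adjusted p = 0.0293). Itgae, the CD103 integrin of tissue-resident T cells and of a dendritic cell subset, had 87, 46 and 50 reads in WT and 8, 16 and 11 in Mttp-IKO, a log2 fold change of -1.98 ± 0.410 (edgeR adjusted p = 0.0423). Both had pools that did not overlap. The Ccr7 call held without WT pool 2 or Mttp-IKO pool 3 and was lost without each of the other 4 pools (edgeR adjusted p of 0.0792 to 0.128). The Itgae call held without WT pool 2 and was lost without each of the other 5 pools (edgeR adjusted p of 0.0567 to 0.169). Dendritic cells use both genes. Of the conventional dendritic cell markers, Flt3 fell (log2 fold change -2.37, edgeR adjusted p = 0.0241). Xcr1 was at -2.08 (edgeR adjusted p = 0.0974) and Cd209a at -1.38 (edgeR adjusted p = 0.275), while Clec9a and Zbtb46 were at 0.22 and 0.14. The part of these cells in the Ccr7 and Itgae values was not tested.

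The most abundant homing gene was Itgal, the LFA-1 alpha chain of most leukocytes, with 2757, 1288 and 1892 reads in WT and 998, 757 and 792 in Mttp-IKO (log2 fold change -0.84, edgeR adjusted p = 0.0974). S1pr5, which NK cells use to leave tissues, had 140, 217 and 129 reads in WT and 74, 129 and 140 in Mttp-IKO (log2 fold change -0.10, edgeR adjusted p = 0.901).

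**Figure D5:**
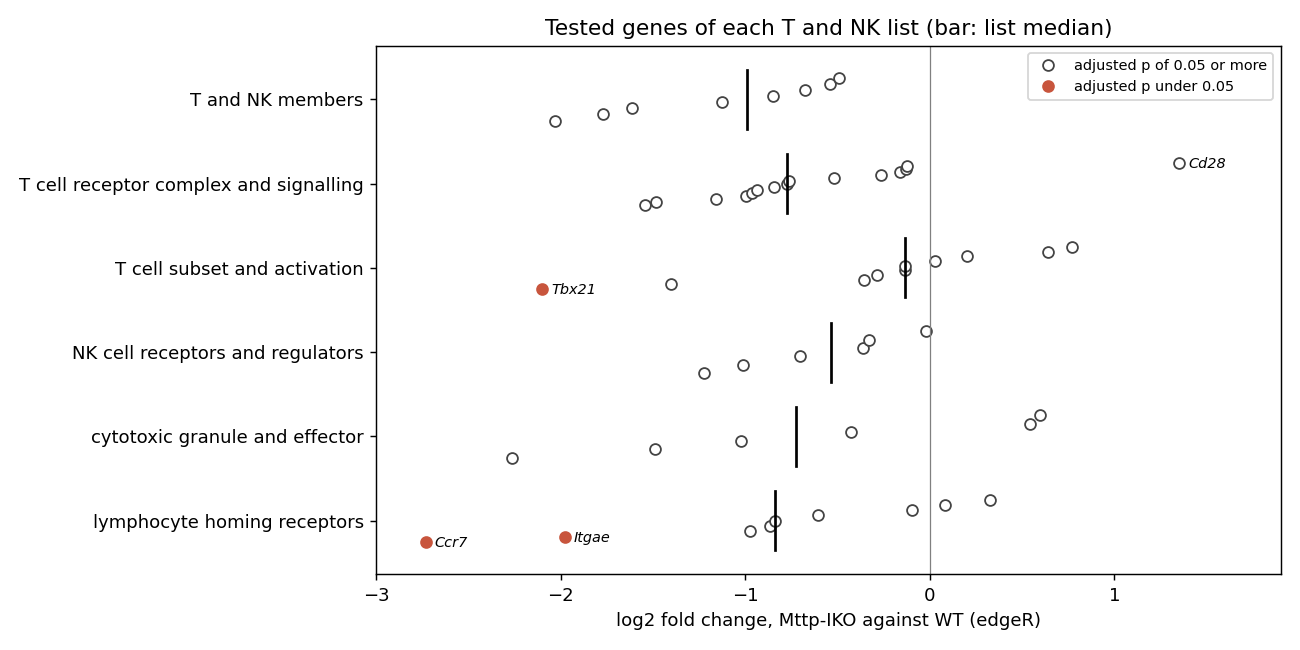
Log2 fold change (horizontal axis, Mttp-IKO minus WT) of each tested gene of the T and NK members and the 5 further lists (1 row a list; vertical bar, list median), with genes of edgeR adjusted p under 0.05 filled. The filled points are Tbx21 at -2.10, Ccr7 at -2.73 and Itgae at -1.98, and the open point farthest to the right is Cd28 at 1.35.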

How the data were processed

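Whole-liver RNA, depleted of ribosomal RNA, was sequenced from 3 WT and 3 Mttp-IKO pools. The replicates are pools of mice that the labels number separately, and nothing ties pools of the same number to each other. The authors aligned reads to GRCm38 with STAR 2.5.1a and assigned reads to genes with featureCounts 1.4.6-p5, leaving out those with more than 1 place or gene, and deposited the raw count of each gene for each pool. Whether strand was used, and whether both reads of a pair were counted, is not given in the sources used here. The deposited CPM and RPKM columns of the pool tables follow from the counts and were not tested. The deposited table of the series held 40757 lines, of which 276 repeated lines were dropped.

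Genes were kept by filterByExpr (minimum count 10, minimum total 15), which left 17287, and counts were scaled by TMM. The genotype test was edgeR's quasi-likelihood F test (glmQLFTest after glmQLFit; edgeR 4.0.16 under R 4.3.3). P-values were adjusted by Benjamini and Hochberg's method over all genes tested, with calls under 0.05, a choice made here, since the study's methods name no tool for this test. Exact permutation tests of 3 pools against 3 are two-sided. Shares have exact Clopper-Pearson intervals of 95%, and intervals and limits cover counting error only. No 2 pools were alike within sampling noise. The members and lists were chosen with earlier results of these data known. The further genes named are, for each list, those called and the 3 with the highest mean CPM, Mttp, and, of the cell type markers, those called and the pan-leukocyte set, while other markers named and the pools singled out were chosen after their values were seen. Of the list genes, 1 (Trdc) was not analysed here. A further gene that this rule names is not reported here. Promoters came from RefSeq (GRCm38.p6, 250 bases before and 50 after the start), with 8 of 10 members matched by symbol. Scripts were tested on simulated counts. Alternatives were other scalings, DESeq2 1.42.0, limma-voom (limma 3.58.1), edgeR's exact test, other filters, protein-coding genes only, a replicate block, removal of the loess trend (span 0.3) with gene length, halved counts and leaving out pools. Plots used matplotlib 3.10.9 (Python 3.11.15).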

Additional observations from a re-analysis of the deposited data

How the results depend on the processing

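The count of members called was 0 under every setting run (other scalings, tools, filters, the replicate block, length correction, halved counts and each pool left out) except edgeR's exact test, which called 1. Over all genes, 694 were called, against 1847 by DESeq2, 428 by limma-voom, 1831 by edgeR's exact test and 0 to 892 with each pool left out (0 without Mttp-IKO pool 2, 21 without WT pool 3, 24 without WT pool 1 and 55 without Mttp-IKO pool 1). Of the 46 companion genes tested, 3 were called, against 9 by DESeq2, 0 by limma-voom, 9 by edgeR's exact test, 0 to 4 with each pool left out and 0 without both WT pool 1 and Mttp-IKO pool 3. In that setting 470 of all genes were called, and Tbx21 (-2.35), Ccr7 (-2.84) and Itgae (-1.82) kept folds near those with all pools. With the replicate block, 595 genes, 0 members and 1 companion gene (Ccr7) were called, and Tbx21 (adjusted p = 0.0690) and Itgae (adjusted p = 0.0780) were not, nor among the markers were Cd52 (0.0596), Timd4 (0.0611), Trem2 (0.0509) and Ly6c2 (0.0713). The numbers do not pair the pools, since the deviations of same-numbered pools correlated by 0.14, 0.11 and 0.0070. Total-count scaling moved the median of all genes to -0.17 and that of the members to -1.19. Log2 fold changes turned sign for Cd4 (0.022) and Cd3e (0.035) without both pools, for Cd27 without Mttp-IKO pool 3 (0.11; -0.48 to 0.11 with each pool left out) and without both pools (0.15), for S1pr5 without WT pool 2 or Mttp-IKO pool 1 (-0.40 to 0.19 with each pool left out), and for Cd160 by limma-voom (0.033), with the replicate block (0.034), without WT pool 1 or Mttp-IKO pool 1 or 2 (-0.31 to 0.27 with each pool left out) and without both pools (0.12). The cause was not tested. Of the single-gene values, 617 kept their direction and their side of the threshold, 96 lost a call, 21 gained one and 12 turned sign. The members had 75 to 641 reads in a pool. In the main fit 0 of the 8 members tested, from Cd3e at -0.49 to Cd3d at -2.03, could be told from the spread between pools.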

Other observations

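The balance of the coreceptors differed as much within genotypes as between them. The ratio of Cd8a reads to Cd4 reads was 0.705, 0.447 and 0.762 in the WT pools and 0.265, 0.833 and 0.579 in the Mttp-IKO pools, so Mttp-IKO held both the highest and the lowest value. Cd8b1 took 41.9% of CD8 reads (95% exact binomial interval 33.5 to 50.7%) in WT pool 1 and 40.9% (20.7 to 63.6%) in Mttp-IKO pool 1, against 26.1% (10.2 to 48.4%) and 20% (9.05 to 35.6%) in WT pools 2 and 3. It took 4.76% (0.120 to 23.8%) and 0% (0 to 28.5%) in Mttp-IKO pools 2 and 3. As a heterodimer of both chains marks conventional cytotoxic T cells and Cd8a alone is also read from some dendritic cells, these shares are given as values only.

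Some genes of further T cell states were looked at after their values were seen. Foxp3, the transcription factor of regulatory T cells, had 64, 36 and 70 reads in WT and 28, 42 and 33 in Mttp-IKO (log2 fold change -0.36, edgeR adjusted p = 0.615). Ccl4, a chemokine of activated lymphocytes and macrophages, had 84, 22 and 37 reads in WT and 11, 12 and 0 in Mttp-IKO (log2 fold change -2.27, edgeR adjusted p = 0.152). Pdcd1, the inhibitory receptor PD-1, was read unevenly, with 46, 0 and 27 reads in WT and 8, 4 and 0 in Mttp-IKO, and was below the filter. Ifng, the type 1 cytokine that T-bet drives, had 2 reads in each genotype over all pools.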
